A study of Mus musculus with 2 samples.

Results

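Serotonin synthesis and the secretory granule of enteroendocrine cells were followed through 10 genes, chosen by name, in single-cell RNA-seq of mouse ileal enteroids. Tph1, Ddc and Slc18a1 make serotonin and load it into vesicles, Chga, Chgb, Scg2 and Scg3 encode granins, Pcsk1 and Cpe process prohormones, and Scgn encodes a calcium sensor. All 10 were listed in both deposited count tables, which together name 16665 genes. The level of a gene is given as unique molecular identifiers (UMIs, each counting 1 captured RNA molecule) per 10000 UMIs of the cells concerned, and is compared between cells or libraries and never between genes.

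Enteroendocrine cells are the rare hormone-secreting cells of the gut epithelium. They arise from crypt progenitors that transiently express the transcription factor Neurog3 and then store peptide hormones or serotonin in dense-core granules. The serotonin-producing subtype, the enterochromaffin cell, makes most of the serotonin of the body: Tph1 hydroxylates tryptophan in the rate-limiting step, Ddc decarboxylates the product to serotonin, and Slc18a1 (VMAT1) transports it into the granule. Granins are acidic proteins that condense the granule content, and in peptide-secreting cells Pcsk1 cuts prohormones that Cpe then trims at their ends.

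Enteroids, epithelial cultures grown from intestinal crypts, were established from the ileum of mice 4 months of age on a C57Bl6/129sv background. The library labelled Taf4IEC came from Taf4lox/lox::VilCreERT2 enteroids, in which a tamoxifen-dependent Cre driven by the villin promoter in all epithelial cells deletes Taf4, which encodes a protein of the TFIID complex used by RNA polymerase to start transcription. It received 1 µM 4-hydroxytamoxifen (4-OHT) for 3 days, from day 5 to day 8 of culture. The control library is labelled wild type and ethanol-treated, while the methods of the study describe control enteroids as Taf4lox/lox without Cre and treated with 4-OHT (which of them applied cannot be told from these sources). Live cells were sorted and captured with 10x Genomics 3′ chemistry. There was 1 library for each genotype, so no difference between libraries has a replicate check, and no test was made. All intervals are 95% intervals that cover counting error only.

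The control library held 2563 cells with a median of 16749 UMIs and the Taf4IEC library 1811 cells with a median of 2254 UMIs, and 2 cell barcodes occurred in both. Cells under 2000 UMIs were 17.3% of control and 49.1% of Taf4IEC cells. Taf4 itself had 278 UMIs in control and 236 in Taf4IEC cells, a level of 0.0696 and 0.0944 per 10000. Taf4 was thus not lower in the library labelled Taf4IEC, and since the place of the 3′ reads relative to the deleted exons is not given in the sources used here, the gene does not check the label. Control and Taf4IEC below name the libraries as labelled.

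The promoters of 3 granin genes are shown because these genes carry much of what follows and share a motif. RefSeq promoter sequences (GRCm38.p6) were at hand for 8 of the 10 genes, not for Slc18a1 and Cpe. The 250 bases before the transcription start were searched on both strands for 4 motifs. The first was the cAMP response element, spelled TGACGTNA, which CREB-family factors bind. The second was an E-box of the kind recognised by basic helix-loop-helix factors, spelled CAGATG. The third was the GC box of many housekeeping promoters, spelled GGGCGG, and the fourth the core promoter element known as the TATA box, spelled TATAAA. The 120 bases before the start of Chga (chr12:102554821-102554940, plus strand), Chgb (chr2:132781522-132781641, plus strand) and Scg2 (chr1:79440027-79440146, minus strand) are written 5′ to 3′ with the cAMP response element in capitals.

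Chga: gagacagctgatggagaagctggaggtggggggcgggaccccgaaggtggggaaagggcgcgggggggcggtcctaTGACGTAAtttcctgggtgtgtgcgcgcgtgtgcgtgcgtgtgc

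Chgb: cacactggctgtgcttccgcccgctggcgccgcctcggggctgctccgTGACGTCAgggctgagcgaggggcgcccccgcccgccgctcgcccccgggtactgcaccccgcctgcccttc

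Scg2: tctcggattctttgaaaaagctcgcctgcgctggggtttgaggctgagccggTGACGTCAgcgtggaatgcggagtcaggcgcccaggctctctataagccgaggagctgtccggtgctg

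The element began 44 bases before the start in Chga, 72 in Chgb and 68 in Scg2. Pcsk1 held it too, beginning 78 bases before the start used by the table. TGACGTNA was thus in 4 of the 8 genes, against 2.52% of all 32851 promoter entries. The GC box was in 4 of 8 (Tph1, Chga, Chgb and Scgn), against 32.7% of entries. The letters TATAAA were in 1 (Ddc) against 12.4%, and the E-box in 0 against 14.4%. The Ddc match lay on the opposite strand (TTTATA), beginning 68 bases before the start, and is not read as a working TATA box. The 8 genes had 10 entries and counted with a match in any of them, while the shares are per entry. A match describes these letters and is no sign of binding in these cells.

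In RefSeq, Tph1 is at chr7:46644641-46672537, Ddc at chr11:11814101-11898144, Slc18a1 at chr8:69037708-69089238, Chga at chr12:102554941-102565027, Chgb at chr2:132781642-132795079, Scg2 at chr1:79434366-79440026, Scg3 at chr9:75643366-75685959, Pcsk1 at chr13:75089420-75134861, Cpe at chr8:64592542-64693109 and Scgn at chr13:23953456-23991327, all in GRCm38.p6. Pcsk1 and Scgn are both on chromosome 13, and Cpe and Slc18a1 both on chromosome 8.

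Cells were grouped by clustering each library without the 10 genes, and clusters were named from marker genes that do not include them. In each library 2 clusters were enteroendocrine-like. In control these were a cluster of 202 cells (median 11083 UMIs, leading genes Gcg, Chgb, Cck, Chga and Pyy) and a shallow one of 44 cells (median 881.5 UMIs, led by Gcg, Cck, Sct, Ghrl and Pyy). In Taf4IEC they were a cluster of 128 cells (median 18692 UMIs, led by Nts, Chgb, Chga, Pyy and Gip) and a shallow one of 80 cells (median 981 UMIs, led by Gcg, Cck, Ghrl, Sct and Scg2). Of the 22 enteroendocrine markers, 21 were listed in the tables, and the somatostatin gene Sst was not.

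Enteroendocrine-like cells were 246 of 2563 control cells (9.60%, Clopper-Pearson interval 8.48 to 10.8) and 208 of 1811 Taf4IEC cells (11.5%, 10.1 to 13.0). The difference was 1.89 percentage points (0.01 to 3.80), and its sign turned without the shallow cluster of each library (-0.81) and with 30 principal components (-2.53). The shallow cells, 44 in control and 80 in Taf4IEC, were then taken out of the class but kept in the total. This lowers the share more in the library with more of them. These cells held 5.96% of all UMIs of the control library and 10.0% of those of the Taf4IEC library, so a level over all cells and a level within the class answer different questions. Fewer cells of a type and less RNA per cell cannot be told apart in a level over all cells.

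The 10 genes were restricted to enteroendocrine-like cells to very different degrees. Together, these cells held 88.9% (88.4 to 89.3) of all UMIs of the 10 genes in control and 95.3% (95.1 to 95.6) in Taf4IEC. Every one of the 10 was at least 4-fold higher per 10000 UMIs in enteroendocrine-like than in the other cells of both libraries. Among genes with at least 200 UMIs this held for 9 of 9 of them, against 2.61% of 8847 genes in control and 3.99% of 7972 in Taf4IEC. Since genes that move together shape clusters, this is a description of the class and no independent check of it.

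Of the serotonin genes, Tph1 was the most restricted. Its level in enteroendocrine-like cells was 1.11 per 10000 (0.979 to 1.25) in control and 1.52 (1.37 to 1.68) in Taf4IEC, and 91.3% and 98.2% of its UMIs were there. Outside the class it had 25 UMIs in 20 control cells and 7 UMIs in 7 Taf4IEC cells. In enterocyte-like cells, which absorb nutrients and are not known to make serotonin, it had a UMI in 0% of control and 1.18% of Taf4IEC cells. Over the control library, 10 cells held 65.4% of all Tph1 UMIs, and over the Taf4IEC library 55.4%.

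Ddc and Slc18a1, which act after Tph1, were found in other cells as well. Only 39.5% of Ddc UMIs in control and 61.1% in Taf4IEC lay in enteroendocrine-like cells, where its level was 2.38 and 2.94 per 10000. In enterocyte-like cells Ddc stood at 0.468 in control and 0.439 in Taf4IEC, and a Ddc UMI was seen in 43.3% and 47.9% of those cells. Thinned to 2000 UMIs a cell, to set depths equal, the share was 4.65% (2.25 to 8.39) of 215 control and 7.81% (3.81 to 13.9) of 128 Taf4IEC enterocyte-like cells, against 34.7% and 37.6% of enteroendocrine-like cells.

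Slc18a1 had a different second site, the Paneth/goblet-like cells, which secrete antimicrobial peptides and mucus. Its level there was 0.455 in control and 0.699 in Taf4IEC, against 1.53 and 2.46 in enteroendocrine-like cells and 0.009 and 0.033 in enterocyte-like cells. A Slc18a1 UMI was seen in 49.5% of control and 37.7% of Taf4IEC Paneth/goblet-like cells, and after thinning in 7.61% (4.22 to 12.4) of 184 and 9.43% (4.62 to 16.7) of 106. In thinned enterocyte-like cells it was in 0 of 215 control cells, which allows a share of up to 1.395% at 3 counts of the total and 1.70% by the Clopper-Pearson bound, and in 1 of 128 Taf4IEC cells (0.78%, 0.02 to 4.28). The intervals of the thinned Paneth/goblet-like and enterocyte-like cells did not overlap in either library.

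Pcsk1, like Slc18a1, was also found in Paneth/goblet-like cells. It stood at 0.288 in control and 0.171 in Taf4IEC Paneth/goblet-like cells, against 2.67 and 2.59 in enteroendocrine-like cells, which held 68.3% and 87.2% of its UMIs. After thinning, 8.70% of control and 2.83% of Taf4IEC Paneth/goblet-like cells had a Pcsk1 UMI, and none of 215 and 128 enterocyte-like cells did. The remaining genes (Tph1, Chga, Chgb, Scg2, Scg3, Cpe and Scgn) each had between 91.3% and 98.7% of their UMIs in enteroendocrine-like cells. The plot of levels by cell class shows these sites of Ddc, Slc18a1 and Pcsk1, but the other classes were not all low. In control tuft-like cells Pcsk1 was at 0.252 (0.181 to 0.342) and Ddc at 0.326. Ddc was also at 0.213 in control stem-like and 0.216 in control cycling-like cells. The 15 Taf4IEC tuft-like cells held only 2 Pcsk1 and 6 Ddc UMIs.

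**Figure D1:**
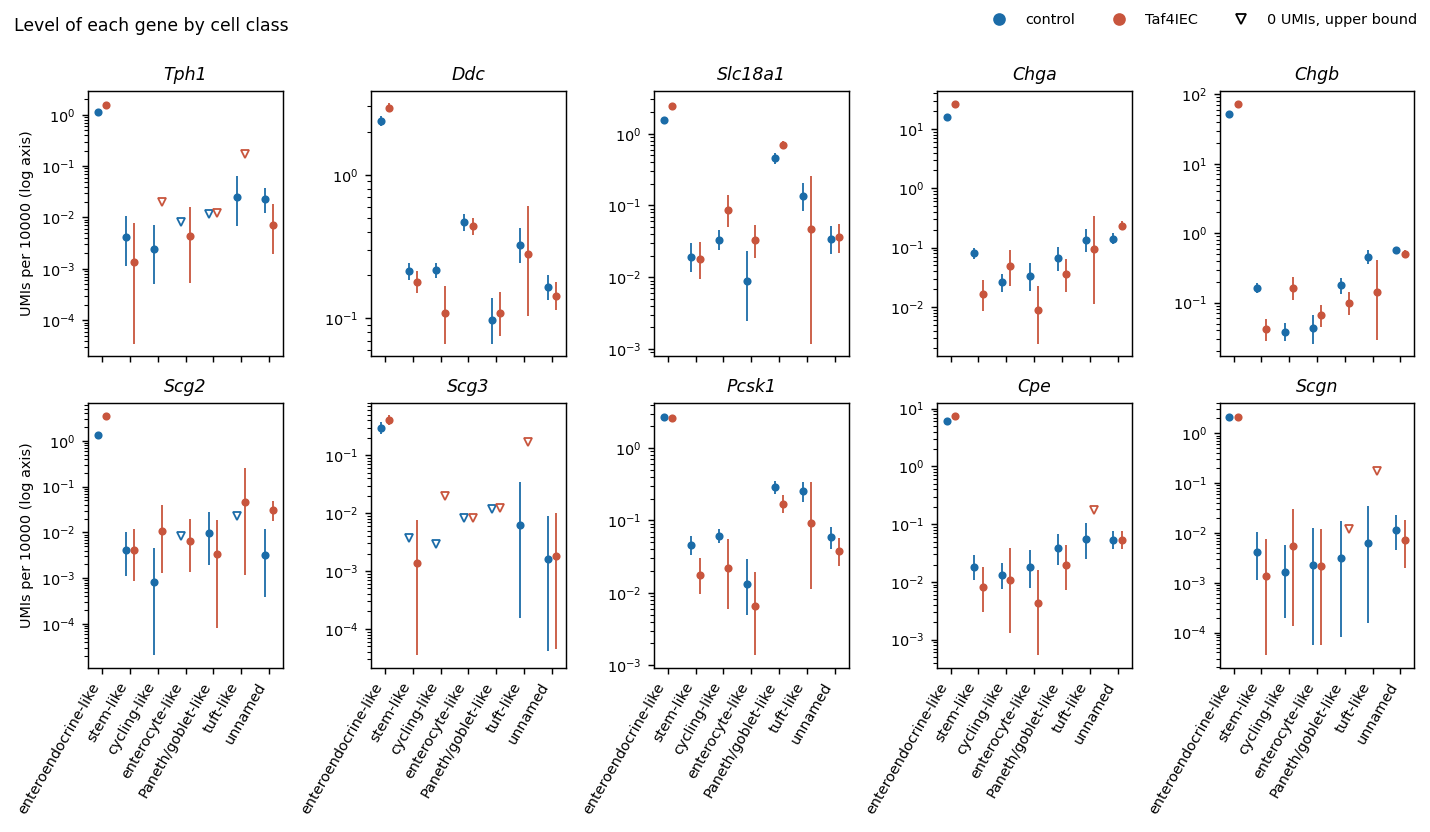
Level of each gene (UMIs per 10000, log axis) in 7 cell classes of the control (blue) and Taf4IEC (red) library, with 95% Poisson intervals; open triangles mark 0 UMIs at the upper bound. Every gene is highest in enteroendocrine-like cells, with Ddc at 0.468 and 0.439 in enterocyte-like cells and Slc18a1 at 0.455 and 0.699 in Paneth/goblet-like cells.

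Chga and Chgb were also found in cells that clustered with no class. The shallow unnamed cells, 438 in control (median 1216 UMIs) and 580 in Taf4IEC (median 633.5), had Chga at 0.859 and 2.08 per 10000 and Chgb at 3.38 and 4.19. These cells held 80 of the 255 Chga UMIs outside the class in control and 113 of 169 in Taf4IEC. They also carried markers of several classes. Enteroendocrine markers summed to 6.11 in control and 8.39 in Taf4IEC, and Paneth/goblet markers to 60.6 and 105. In control 10 of these cells held 202 of their 315 Chgb UMIs, while in Taf4IEC 146 cells shared 227, with at most 8 in a cell. What these cells are was not tested.

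Between the libraries, all 10 genes had a higher level in Taf4IEC when all cells were summed. The median log2 ratio of Taf4IEC over control was 1.15, with 6 of 10 genes at least 2-fold higher and all 10 intervals above 0. Scg3, among the 6, had 73 and 105 UMIs and so fell under the 200-UMI limit of the comparison that follows. Of 10002 genes with at least 200 UMIs, 5.52% were at least 2-fold higher and 3.48% at least 2-fold lower. Their median was 0.16, and with that shift taken off the median of the 10 genes was 0.996. A median above 0 means that most of all genes were higher too. The share of all genes with an interval above 0 is not given, so that count of the 10 has no background. In the cells outside the enteroendocrine-like class the median over the 10 genes was -0.11.

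Within enteroendocrine-like cells the differences were smaller. The median log2 ratio of the 10 genes was 0.46, 9 were higher in Taf4IEC and Pcsk1 was lower, and 8 intervals lay above 0. Only Scg2 was at least 2-fold higher and none was 2-fold lower, against 2.48% and 0.857% of 3383 genes, whose median was 0.22. Most of those genes were thus higher as well, and the share of them with an interval above 0 is not given. In the deeper cluster of each library alone the median was 0.49, again with 1 gene at least 2-fold higher and 0 lower, against 2.39% and 0.796% of 3266 genes. Without the general shift the median of the 10 genes was 0.24.

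Scg2, which encodes secretogranin II, differed most. It had 314 UMIs in control and 871 in Taf4IEC enteroendocrine-like cells, 1.32 (1.18 to 1.47) and 3.47 (3.24 to 3.71) per 10000, with a log2 ratio of 1.397 (1.21 to 1.59). After thinning, a Scg2 UMI was in 13.8% (9.28 to 19.4) of 196 control and 27.7% (20.5 to 35.8) of 141 Taf4IEC cells. The UMIs were concentrated, with 10 cells holding 65.7% of all Scg2 UMIs in control and 59.4% in Taf4IEC, so few cells set both levels.

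Chga and Chgb, granins widely used as enteroendocrine markers, were higher as well. Chga was at 15.7 (15.2 to 16.3) in control and 26.6 (26.0 to 27.2) in Taf4IEC, a log2 ratio of 0.76 (0.70 to 0.81). Chgb stood at 51.2 (50.3 to 52.1) in control against 73.3 (72.2 to 74.3) in Taf4IEC, which gives a log2 ratio of 0.52 (0.48 to 0.55). Both also occurred in more of the cells after thinning: Chga in 50.5% (43.3 to 57.7) and 72.3% (64.2 to 79.5), Chgb in 40.3% (33.4 to 47.5) and 57.4% (48.8 to 65.7). Scg3, which binds other granins in the granule membrane, was at 0.298 and 0.410 from 71 and 103 UMIs, with a log2 ratio of 0.46 whose interval (0.01 to 0.92) nearly reached 0 and which turned to -0.13 when each cell was weighted equally.

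The serotonin genes followed in the same direction. Tph1 had a log2 ratio of 0.45 (0.22 to 0.69), Ddc 0.30 (0.14 to 0.46) and Slc18a1 0.69 (0.50 to 0.88). A Tph1 UMI was in 9.69% (5.94 to 14.7) of thinned control and 21.3% (14.8 to 29.0) of thinned Taf4IEC enteroendocrine-like cells. For Ddc the shares were 34.7% and 37.6% with overlapping intervals. The ratio of Tph1 turned to -0.28 when cells were thinned to 500 UMIs, which also lets shallower cells in.

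The processing enzymes and Scgn were the least different. Cpe, the carboxypeptidase, was at 6.18 in control and 7.46 in Taf4IEC, a log2 ratio of 0.27 (0.17 to 0.37). Pcsk1, the convertase, was at 2.67 and 2.59 with a log2 ratio of -0.04 (-0.20 to 0.12), and Scgn at 2.07 and 2.14 with 0.05 (-0.13 to 0.23). Counting error alone covers the differences of Pcsk1 and Scgn, and their intervals leave room for changes of that size in either direction.

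**Figure D2:**
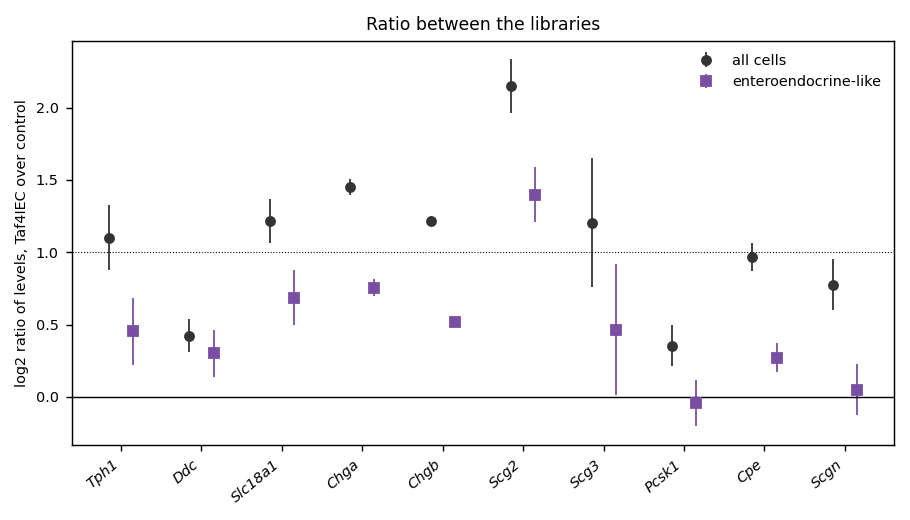
The log2 ratio of each gene's level, Taf4IEC over control, over all cells (black circles) and over enteroendocrine-like cells (purple squares), with 95% counting intervals; the dotted line marks a 2-fold difference. Over all cells every gene lies above 0, while within enteroendocrine-like cells only Scg2 (1.397) passes the dotted line and Pcsk1 (-0.04) and Scgn (0.05) lie near 0.

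Markers of other cell types differed between the enteroendocrine-like cells of the libraries. The 18 Paneth and goblet markers, all detected in both, summed to 34.6 per 10000 in control and 166 in Taf4IEC, and the 13 enterocyte markers to 27.3 (11 detected) and 56.3 (13 detected). Lyz1 was at 1.44 and 17.4, Ang4 at 1.12 and 17.7, and the enterocyte genes Alpi and Lct had 0 UMIs in control and 2 and 1 in Taf4IEC. Cells in which either list reached 100 per 10000 were left out in an alternative chosen after the data were seen. The median log2 ratio of the 10 genes was then 0.76, larger than with all cells. The difference in the share of cells was -2.31 points, with the cells left out still counted in the total.

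Per cell, the 10 genes varied widely within the class. Among enteroendocrine-like cells with at least 2000 UMIs, 196 in control and 141 in Taf4IEC, Chga ranged from 0 to 294 per 10000 with a median of 4.21 in control, and from 0 to 205 with a median of 14.0 in Taf4IEC. Chgb ranged from 0 to 698 with a median of 0.721 in control and from 0 to 526 with a median of 14.0 in Taf4IEC. Chgb was thus near 0 in the middle control cell, and 49.0% of these control cells and 27.0% of the Taf4IEC cells had no Chgb UMI. The median of Tph1, Scg2, Scg3 and Scgn was 0 in both libraries, whereas Ddc, Slc18a1, Pcsk1 and Cpe had medians above 0 in both.

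Cells with Tph1 differed from the other cells of the class in most of the genes. In control, 24 of 246 enteroendocrine-like cells (9.76%, 6.35 to 14.2) had at least 3 Tph1 UMIs, and in Taf4IEC 32 of 208 (15.4%, 10.8 to 21.0). They were compared within each library with the cells that had no Tph1 UMI and at least 2000 UMIs, 166 in control and 110 in Taf4IEC. Chga, Chgb, Slc18a1, Ddc and Pcsk1 were higher in the Tph1-positive cells of both libraries, Scgn was lower in both, and the intervals of Scg3 took in 0 in both. The cells are grouped by a gene of the same cells, so these are descriptions of cells and not comparisons of conditions.

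Chgb stood at 328 per 10000 in Tph1-positive and 21.1 in Tph1-negative control cells, a 15.6-fold difference, and at 278 and 39.9 in Taf4IEC, a 6.98-fold difference. Chga stood at 97.0 and 7.42 in control, and at 108 and 13.1 in Taf4IEC. In every Tph1-positive cell of both libraries both genes had at least 1 UMI. Slc18a1 stood at 7.13 and 0.891 in control and at 8.57 and 1.48 in Taf4IEC, and Ddc at 5.98 and 2.07 and at 7.04 and 2.26. The vesicle transporter was thus 8.00-fold and 5.81-fold higher in Tph1-positive cells, and the decarboxylase 2.89-fold and 3.11-fold.

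Scgn, by contrast, was nearly absent from Tph1-positive cells. In control it had 0 UMIs in the 24 cells, against 485 UMIs and 2.34 per 10000 in the Tph1-negative cells. Counting every cell with any Tph1 UMI, 0 of 34 control cells also had a Scgn UMI, while 87 of the other enteroendocrine-like cells did. In Taf4IEC 7 of 37 Tph1 cells had Scgn, at 0.317 per 10000 in the gated cells against 2.49 in the Tph1-negative ones. Scg2 was lower too in the Tph1-positive cells of Taf4IEC (1.96 against 3.74, log2 -0.93, -1.31 to -0.57), and in control its interval took in 0 (0.884 against 1.41, log2 -0.67, -1.47 to 0.03).

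Having a UMI of each of the 3 serotonin genes in the same cell was common among Tph1 cells. In control 25 of 34 cells with Tph1 also had both Ddc and Slc18a1, and in Taf4IEC 29 of 37. More cells carried Ddc and Slc18a1 without Tph1, 78 in control and 71 in Taf4IEC. Lmx1a and Tac1, picked from a list of 7 enterochromaffin genes after their values were seen, were higher in the Tph1-positive cells of both libraries. Lmx1a, a transcription factor of this lineage, was at 1.72 against 0.005 in control and at 1.90 against 0 in Taf4IEC. Tac1, the substance P precursor, was at 37.3 against 0.202 and at 41.7 against 2.47. The rest of the list is not given for these cells, so Lmx1a and Tac1 do not name them as enterochromaffin cells. In the class as a whole, the listed reuptake transporter Slc6a4 was lower than in the other cells. It was at 0.0126 against 0.0469 per 10000 in control and at 0.0239 against 0.0618 in Taf4IEC. The other listed genes, Trpa1, Gch1, Rab3c and Cacna1h, were higher in the class than outside it in both libraries. Gch1 was at 2.48 against 0.407 in control and at 3.32 against 0.606 in Taf4IEC. Trpa1 had only 11 UMIs in the class in control and 20 in Taf4IEC. Lmx1a and Tac1 are also among the markers used to name the class.

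**Figure D3:**
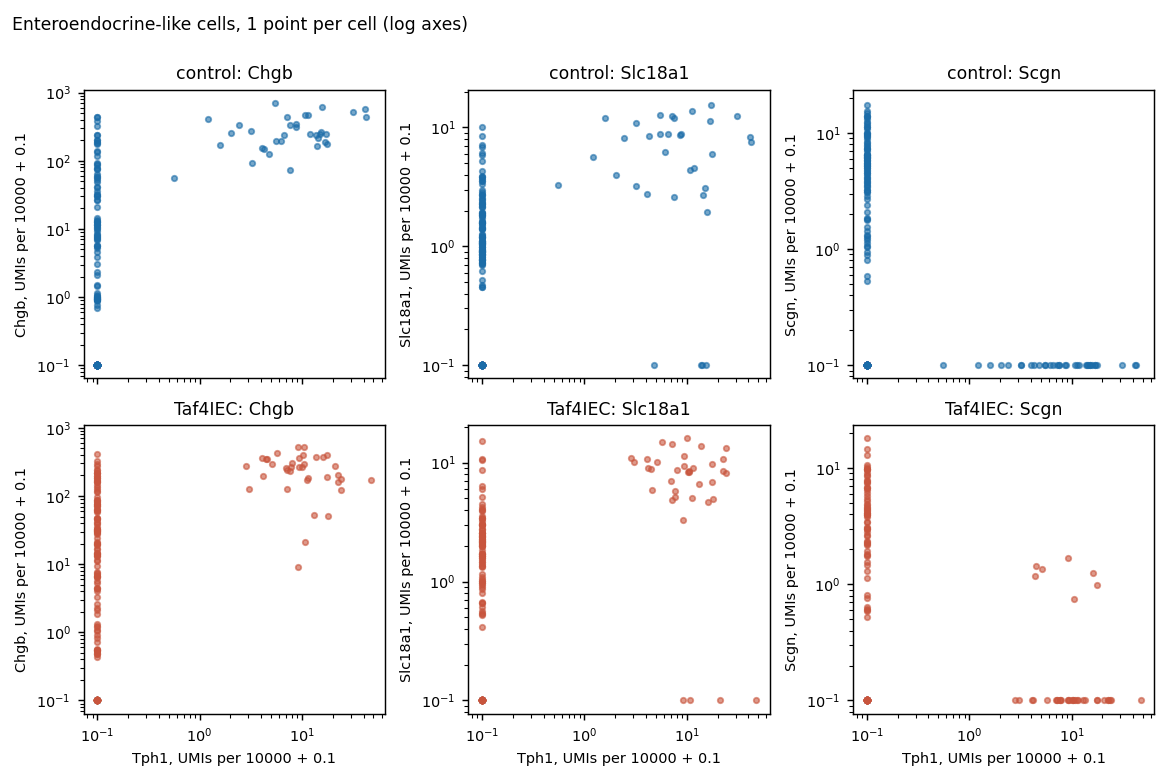
Chgb, Slc18a1 and Scgn against Tph1 in each enteroendocrine-like cell of the control (top) and Taf4IEC (bottom) library, as UMIs per 10000 plus 0.1 on log axes. Cells with Tph1 lie high for Chgb, and along the lower edge for Scgn in all 34 control and 30 of 37 Taf4IEC cells.

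To place the genes along the differentiation of the class, enteroendocrine-like cells with at least 2000 UMIs were split into 3 states after the data were seen: cells with at least 3 Tph1 UMIs, cells with at least 3 UMIs of the progenitor factor Neurog3 and fewer of Tph1, and the rest. Control held 22, 69 and 105 of these cells and Taf4IEC 30, 60 and 51. The Neurog3 state was 35.2% (28.5 to 42.3) of control and 42.6% (34.3 to 51.2) of Taf4IEC cells. Its median depth was 12882 UMIs in control and 20281 in Taf4IEC, and a deeper cell reaches 3 UMIs more easily. The part of this in the share was not tested.

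In control, the Neurog3 state had the lowest level of 9 of the 10 genes, Scgn being lowest in the Tph1 state. Tph1 is among the 9, but its UMIs define the states, and it had only 2 UMIs in the Neurog3 state and 9 in the rest. Chgb was at 4.76 in the Neurog3 state, 43.9 in the rest and 331 in the Tph1 state. Chga followed the same order at 4.20, 12.1 and 97.5, and so did Slc18a1, from 0.462 up to 7.10, and Ddc at 1.60, 2.50 and 6.09. Scg2, Cpe and Scgn were instead highest in the rest: Cpe was at 2.40, 9.14 and 6.36, and Scgn at 1.11, 3.15 and 0.

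The ratios between the libraries were largest in the Neurog3 state, although the difference between states was not tested. Of the 9 genes with UMIs in both libraries there (Tph1 had 2 and 0), all were higher in Taf4IEC, with a median log2 ratio of 1.30 and 7 intervals above 0. Among genes with at least 200 UMIs, 3 of 7 of them were at least 2-fold higher, against 4.72% of 1397 genes, whose median was 0.22. Here too most of all genes were higher, and the share with an interval above 0 is not given. Chgb was at 4.76 in control and 34.8 in Taf4IEC (log2 2.87, 2.73 to 3.01), Slc18a1 at 0.462 and 1.34 (1.53, 1.04 to 2.05) and Chga at 4.20 and 10.4 (1.30, 1.14 to 1.47). Few cells set the Chgb levels: 1 control cell held 270 of the 443 Chgb UMIs of the state, 8 Taf4IEC cells held 3681 of 4391, and the median cell was at 0 in control and 0.353 in Taf4IEC. The Chgb ratio was 2.60 with a Neurog3 level of at least 2 per 10000, and 1.76 when cells that also had at least 3 Tph1 UMIs were kept in the state (70 control and 63 Taf4IEC cells), while that of Chga was then 1.27. Scg2 was at 0.108 and 1.47, a log2 ratio of 3.78 that was 1.18 once a Neurog3 level of at least 2 per 10000 was asked for as well. Ddc and Pcsk1 had intervals that took in 0.

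In the Neurog3 state a UMI of several of the genes was also seen in more of the Taf4IEC than of the control cells. A Chgb UMI was in 15 of 69 control and 31 of 60 Taf4IEC cells, Chga in 19 and 39, Slc18a1 in 29 and 42, Cpe in 30 and 45, and Scg3 in 2 and 15. These counts are not thinned and the Taf4IEC cells were deeper, and the part of depth in them was not tested. Peptide hormone genes differed in both directions in this state. Gcg had 3 UMIs in control and 3273 in Taf4IEC cells, Cck was at 4.82 and 77.2 per 10000 and Sct at 0.538 and 6.47. Pyy went the other way, at 5.42 in control and 0.365 in Taf4IEC (log2 -3.89, -4.36 to -3.46), and Ghrl was lower as well (log2 -0.43, -0.70 to -0.17). The number of cells behind these hormone values is not given. Few cells may set them, as for Chgb in this state, so they do not describe the typical cell. Without cells rich in Paneth, goblet or enterocyte markers (63 control and 38 Taf4IEC cells left) the median log2 ratio was 1.57.

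In the Tph1 state the libraries were closer. The median log2 ratio of the 9 genes with UMIs in both was -0.10, with 4 higher and 5 lower in Taf4IEC, near the median of all 314 genes with at least 200 UMIs (-0.10). None of the 7 members with at least 200 UMIs was 2-fold higher, against 1.59% of those genes. Chga was at 97.5 in control and 109 in Taf4IEC (log2 0.15, 0.07 to 0.24) and Chgb at 331 and 279 (-0.24, -0.29 to -0.20). Few cells set these sums: 8 control cells held 4106 of 6238 Chgb and 1326 of 1841 Chga UMIs, and 8 Taf4IEC cells 4949 of 9623 and 1807 of 3741. The median cell was at 281 in control and 271 in Taf4IEC for Chgb, and at 64.7 and 107 for Chga. The intervals do not cover this spread between cells, so no opposite change of the 2 granins is read from them. Tph1 itself, whose UMIs chose the cells, was at 12.9 and 10.7. Scg2 was at 0.901 and 1.97 from 17 and 68 UMIs.

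In the remaining cells, 1 of the 8 genes with at least 200 UMIs was 2-fold higher, against 2.44% of 1435 genes. This was Scg2, at 2.34 in control and 7.17 in Taf4IEC (log2 1.61, 1.41 to 1.82). Cpe was at 9.14 and 12.6 (0.46, 0.33 to 0.58) and Chga at 12.1 and 17.9 (0.57, 0.47 to 0.68), while Pcsk1, Ddc, Slc18a1, Scg3 and Scgn had intervals that took in 0. The median over the 10 genes was 0.20, close to that of all genes tested there (0.20). Whether the states are the same stages in both libraries was not tested.

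**Figure D4:**
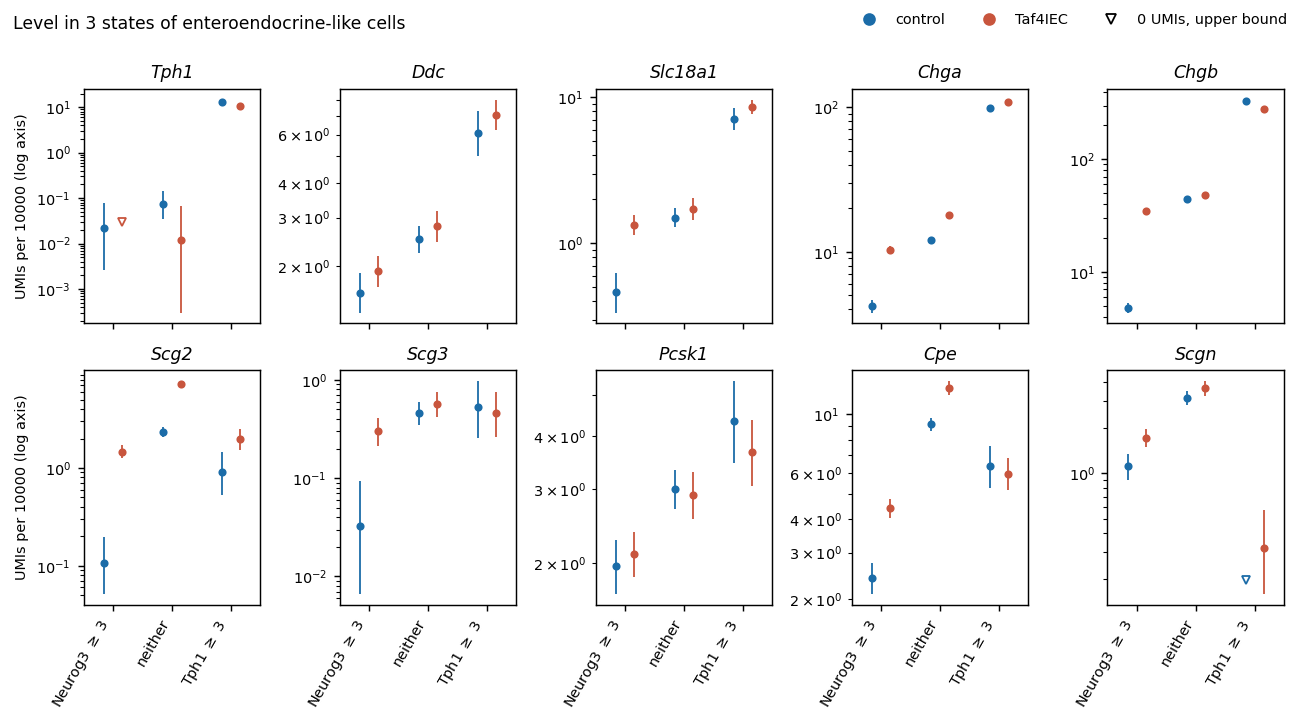
Level of each gene (UMIs per 10000, log axis) in enteroendocrine-like cells with at least 3 Neurog3 UMIs, with neither, and with at least 3 Tph1 UMIs, in control (blue) and Taf4IEC (red), with 95% Poisson intervals; the open triangles mark 0 UMIs. Chga is at 4.20 in control and 10.4 in Taf4IEC in the Neurog3 state and at 97.5 and 109 in the Tph1 state; the wider gap of Chgb in the Neurog3 state rests on few cells and was smaller when cells with Tph1 were kept there.

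Other genes of serotonin handling and of the granule were read from lists fixed by name. Of 19 serotonin handling genes 16 were listed in the tables (Tph2, Aanat and Asmt were not), and 7 had at least 200 UMIs in enteroendocrine-like cells. None of these 7 was 2-fold different, against 2.48% higher and 0.857% lower of the 3383 genes, and their median log2 ratio was 0.42, against 0.22 over those genes. Gch1, which makes the cofactor that Tph1 needs, was at 2.48 in control and 3.32 in Taf4IEC (0.42, 0.26 to 0.57). The serotonin reuptake transporter Slc6a4 had only 3 and 6 UMIs and the degrading enzyme Maob 9 and 13.

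Of the 35 genes of the granule and of exocytosis, 18 had at least 200 UMIs in enteroendocrine-like cells, and 5 of these were at least 2-fold higher and 0 lower in Taf4IEC, with a median log2 ratio of 0.76, beside the same 2.48%, 0.857% and median of 0.22 over all genes. Pcsk1n, whose product proSAAS inhibits Pcsk1, was at 0.445 in control and 2.28 in Taf4IEC (2.36, 2.06 to 2.67). Resp18, a protein of the secretory pathway, was at 0.227 and 0.881, and Rab3c, a small GTPase of vesicle exocytosis, at 0.642 and 2.09. Cadps, which primes dense-core vesicles, was at 0.353 and 0.717, and the vesicle membrane protein Syp at 0.311 and 0.677. Pcsk1n was thus higher where Pcsk1 itself was not, and it was higher in all 3 states (log2 2.11 in the Tph1 state, 4.35 in the Neurog3 state and 1.90 in the rest). The counting intervals of Pcsk1n were wide. Among all enteroendocrine-like cells with at least 3 Neurog3 UMIs its log2 ratio was 4.14 (3.06 to 5.47). With at least 3 Tph1 UMIs it was 2.13 (1.59 to 2.72). Scg5, the chaperone of the convertase Pcsk2, had 46 UMIs over all control cells, 0.0115 per 10000, and 0 over all Taf4IEC cells, with a Poisson upper bound of 0.00148, and Pcsk2 itself had 2 and 0 in enteroendocrine-like cells.

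Over the 26 clusters of both libraries, the genes whose levels went most closely with each of the 10 were found by Pearson's r of log2 levels among 9993 genes. The clusters share libraries and depth, so r is a description. Tph1 went with Vim, Stxbp5l and Scn3a (r 0.96 each), Slc18a1 with Ppp1cb and Syt7 (0.92 each), and Ddc, the least restricted gene, only less closely with Cwh43, Isl1 and Vim (0.85 each). The 10 genes themselves were left out of this search. Chga was nearer to Chgb (0.98) than to any gene outside the 10, and outside them both shared Fev, a transcription factor of enteroendocrine cells, and Gng2 (0.95 and 0.94 for Fev). Scg2 went with Rprml, Fev and Rab3c (0.98 to 0.96), Scg3 with Snap25 and Map1b (0.99 and 0.97) and Pcsk1 with Gng2, Rprml and Cplx2 (0.92 to 0.91). Cpe went with Serpina1c, Fam183b and the fatty acid receptor Ffar1 (0.99 to 0.98), and Scgn with the peptide hormone gene Pyy, Cacna2d1 and Ffar1 (0.98 to 0.96).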

How the data were processed

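RNA of single cells from 1 control and 1 Taf4IEC enteroid library was measured by 10x 3′ sequencing. The authors aligned reads to mm10, counted UMIs with Cell Ranger 3.1 (bcl2fastq 2.17.1.14, Seurat 3.1.4) and filtered cells by genes and mitochondrial share, and the deposited values are raw UMI counts per gene and cell, with library totals of 39947009 and 24990128 UMIs. Here each library was clustered in Seurat 5.3.0 (R 4.3.3; log normalisation, 2000 variable genes without the 10 genes, UMI count and mitochondrial share regressed out, 20 principal components, resolution 0.9). Clusters were named for the class with the most markers (at least 3), each with at least 10 UMIs and 1.5 times the mean level of both libraries, and stayed unnamed where leading genes or depth went against the name. UMIs were summed over cells, with exact Poisson, Clopper-Pearson and conditional binomial 95% intervals (scipy 1.17.1), which cover counting error only. Shares compared between classes used cells thinned to 2000 UMIs. No doublet caller was run, and an alternative left out the 2% of cells with the most UMIs. Functions were tested on simulated data. The genes named are the 10 members, list genes with at least 200 UMIs and a 2-fold difference in enteroendocrine-like cells, the 3 genes most like each member over clusters (log2 of level plus 0.05; 2 of these genes are not reported here), the first 5 leading genes of the enteroendocrine-like clusters, and Taf4; Lyz1, Ang4, Alpi, Lct, Scg5, Pcsk2, Gch1, Slc6a4, Maob, Lmx1a, Tac1, Sst, and Gcg, Cck, Sct, Pyy and Ghrl by state were named after their values were seen. Trpa1 and Cacna1h are named to complete the enterochromaffin list. The members and lists were chosen with earlier results of these data known. Leaving out replicates was not possible with 1 library a group.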

Additional observations from a re-analysis of the deposited data

How the results depend on the processing

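No paired analysis was possible because there is 1 library for each genotype and the results come from no test. The median log2 ratio of the 10 genes stayed above 0 in all 7 alternatives over all cells (0.71 to 1.21). The same held for all 19 over enteroendocrine-like cells (0.23 to 0.76). It was lowest there with totals without mitochondrial, ribosomal protein, Gm42418 and AY036118 genes (0.23) and with all genes centred on their median (0.24). Shifts of the median were judged by a range from the median of the genes' lower interval bounds to the median of their upper bounds. This range is not a counting interval of the median itself. Both lowest values lay within the range. Over all cells the median left its range with each cell weighted equally (0.71) or thinned to 500 UMIs (0.79). In enteroendocrine-like cells it left its range when cells were typed singly by their marker UMIs (0.63). It also did so without cells rich in Paneth, goblet or enterocyte markers (0.76), and in the Neurog3 state without the latter cells (1.57). The difference in the enteroendocrine-like share of cells is the least stable result: it was 6.19 points among cells with at least 1000 genes, and turned to -2.53 with 30 principal components, -0.81 without the shallow clusters and -2.31 without the marker-rich cells. The shallow and the marker-rich cells left the class but not the total, so each share could only fall. Beyond this, the cause was not tested.

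The share of member UMIs in the class moved little in control: 89.5% among cells with at least 1000 genes, 90.5% with the members among the variable genes, 89.4% with 10 principal components and 90.6% with cells typed singly. In Taf4IEC it was 96.7% among cells with at least 1000 genes, 95.6% without the 2% of cells with the most UMIs, 95.04% with clusters made without members and markers, and 92.8% with 30 principal components or without the shallow cluster. Of 287 values of single members under an alternative, 196 stayed within the counting interval, 87 moved and 4 turned: Scgn over all cells with each cell weighted equally (-0.012) or thinned to 500 UMIs (-0.64), and in enteroendocrine-like cells Scg3 with each cell weighted equally (-0.13) and Tph1 thinned to 500 UMIs (-0.28). Genes at least 2-fold different over all cells were 8.998% of genes with at least 200 UMIs and 12.7% of those with at least 50. The alternatives on the shallow clusters, marker-rich cells, the Tph1 gate, the Neurog3 level and Tph1 cells in the Neurog3 state were added after the data were seen.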
